A study of Mus musculus with 14 samples.

Results

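The TNF ligand and receptor superfamilies were examined in the livers of diet-induced obese mice with or without surgery. The members were the rows of the deposited count table whose gene symbol followed the Tnfsf or Tnfrsf naming series, together with Tnf, Lta, Ltb, Ltbr, Fas, Fasl, Cd27, Cd40, Cd40lg, Ngfr and Eda2r. This rule gave 43 of 25212 rows and 42 symbols, since 2 rows were named Tnfrsf22; the second of these held 1 count in all. By role, 16 members were ligands, 6 were receptors with a death domain, 16 were receptors that bind TRAF adaptors without a death domain and 4 were decoy receptors, and Tnfrsf26 was given no role.

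TNF family ligands are mostly made as trimers on the cell surface and can be shed by proteases, and they bind receptors that assemble adaptor complexes inside the cell. Receptors that recruit TRAF proteins act through the NF-κB and MAP kinase pathways, death domain receptors can also start caspase-dependent death or necroptosis, and decoy receptors bind ligand without signalling. In liver, TNF and Fas signalling are known for their part in hepatocyte injury, lymphotoxin and TWEAK signalling for their part in regeneration and the ductular reaction, and RANK and OPG for bone, where OPG captures the RANK ligand.

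RNA was sequenced from the livers of 14 male C57BL/6 mice made obese on a high fat diet (HFD), on which all groups were also kept after surgery. The 5 DIO mice had no operation, the 4 GB-IL mice had the gallbladder joined to the ileum and the common bile duct tied off, so that bile entered the distal small bowel, and the 5 RYGB mice had a Roux-en-Y gastric bypass; the operated livers were taken 8 weeks after surgery. The DIO mice were not sham operated, so an operation as such and either procedure cannot be told apart in these groups. The paper reports lower body weight and less hepatic steatosis after both operations than in DIO mice. Neither of these can be told apart from the operations in these groups. Total counts ran from 18440676 to 21473005 in DIO, from 19231679 to 26131278 in GB-IL and from 18223135 to 28656631 in RYGB livers. All 8 hepatocyte marker genes had counts in the table. Their summed level was 108964 ± 13156 CPM (counts per 1000000 of the TMM-scaled library size) in GB-IL livers (SD, n = 4). This was lower than the 132634 ± 11334 CPM of DIO livers (SD, n = 5; two-sided exact permutation p = 0.0476, not corrected for the number of marker lists). GB-IL 3 was the lowest liver at 91680 CPM. Gene by gene the direction was mixed: 3 of the 8 were higher in GB-IL than in DIO livers, and the median log2 fold change was -0.235. The summed level was 125125 ± 8635 CPM in RYGB livers (SD, n = 5; exact p = 0.302 against DIO). GB-IL livers varied most: the biological coefficient of variation was 0.542 in GB-IL, 0.244 in DIO and 0.295 in RYGB livers. GB-IL 4 lay within or near the DIO range for many genes, and RYGB 5 stood apart from the other RYGB livers for several members.

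Counts were enough to test 24 members: 5 ligands, 6 death domain receptors, 10 TRAF-binding receptors, 2 decoy receptors and Tnfrsf26. The other 19 were too low for the fit and are described by their counts. Per length, the family in DIO livers was led by 3 receptors. Ltbr, the lymphotoxin β receptor, had a level of 42.4 ± 7.68 RPKM, the CPM divided by the exon length in kilobases (SD, n = 5). Tnfrsf1a, the death domain receptor TNFR1, had 32.4 ± 3.63 RPKM, and Tnfrsf1b, the TNFR2 receptor that lacks a death domain, had 11.9 ± 3.05 RPKM. Both higher levels lay more than their SDs above Tnfrsf1b, whereas the SD ranges of Ltbr and Tnfrsf1a met. Fas followed at 8.20 ± 3.12 RPKM and the ligand with the highest level, Tnfsf12 or TWEAK, at 4.29 ± 1.31 RPKM. Its receptor Tnfrsf12a, also called Fn14, was sixth in DIO livers at 1.72 ± 0.257 RPKM, and Tnf itself was at 0.137 ± 0.135 RPKM.

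**Figure D1:**
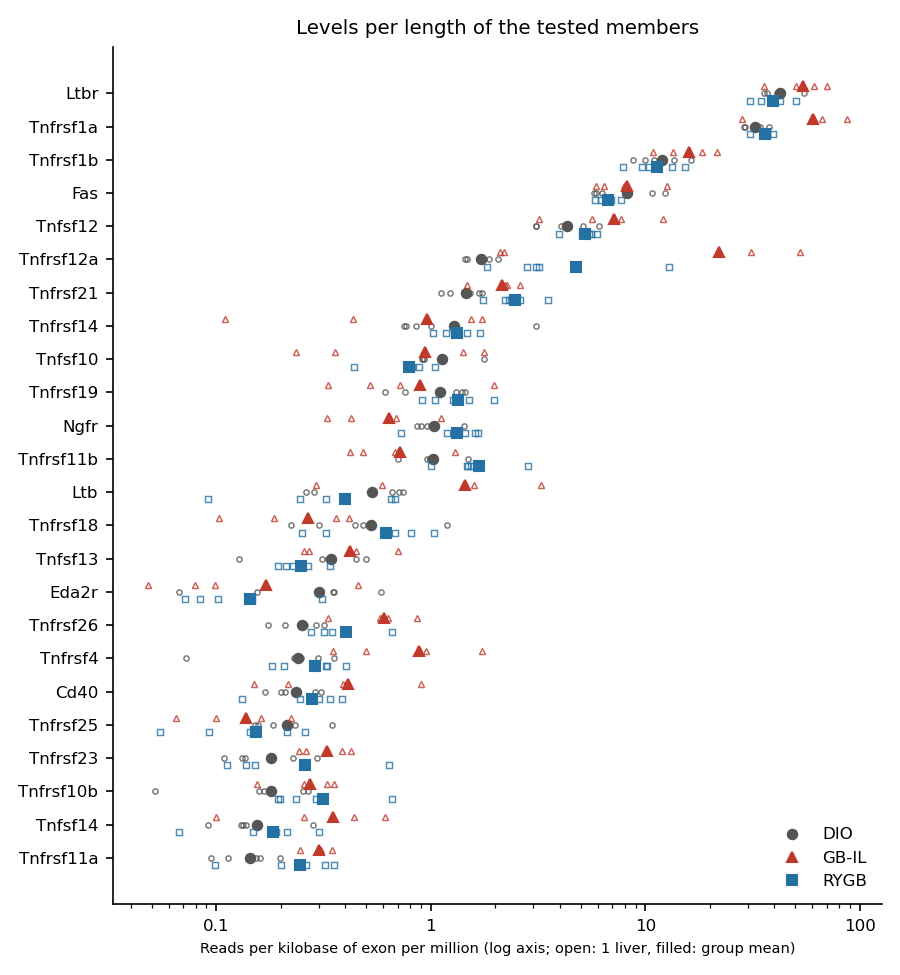
Level of each tested member in RPKM, read counts scaled for depth and exon length (log axis), ordered by the DIO mean; open symbols are single livers and filled symbols group means for DIO (circles), GB-IL (triangles) and RYGB (squares). Ltbr, Tnfrsf1a and Tnfrsf1b led the family in DIO livers at 42.4, 32.4 and 11.9 RPKM, and the GB-IL livers of Tnfrsf12a spread most widely.

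GB-IL was compared with DIO to ask how hepatic transcripts differed after bile diversion. Tnfrsf12a rose in GB-IL livers and was the 1 member of 24 tested that passed the adjusted threshold of 0.05 (edgeR quasi-likelihood test, Benjamini-Hochberg over 14252 genes); none was lower. Over all genes tested, 3.15% were called higher in this comparison. Of the 24 members, 16 had a fitted log2 fold change above 0, with a median of 0.49 against 0.04 over all genes. At an unadjusted p under 0.05, 9 members were higher and 0 lower, where 16.7% of all genes were higher and 6.43% lower. In bulk liver RNA, more cells of a type and more RNA per cell cannot be told apart, and this holds for each difference below.

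The Tnfrsf12a gene (ENSMUSG00000023905) lies on the minus strand at chr17:23675445-23677468 (GRCm38). Its levels were 101, 60.0, 4.24 and 4.06 CPM in GB-IL 1 to 4. The DIO livers had 3.40, 2.85, 2.80, 3.96 and 3.61 CPM, and the RYGB livers 5.41, 6.16, 3.52, 5.96 and 24.8 CPM. GB-IL 1 and 2 were far above every other liver, whereas GB-IL 3 and 4 lay just above the highest DIO liver, so the GB-IL and DIO groups did not overlap. The fitted log2 fold change was 3.67 ± 0.85 (SE; 4 GB-IL and 5 DIO livers), with an edgeR adjusted p of 0.0340, and it ran from 2.78 to 4.05 when each liver was left out. The call was kept in 7 of 14 such fits. It was lost without GB-IL 1 (adjusted p = 0.117), without GB-IL 2 (adjusted p = 0.0780) and without each of the 5 DIO livers. Each of those fits called 0 of all genes tested. The Tnfrsf12a call was also lost when the GB-IL and DIO livers were fitted without the RYGB livers (adjusted p = 0.0964), a fit that called 0 of 13792 genes. No match to the consensus site of NF-κB or to the AP-1 site TGANTCA was found on either strand of the 250 bases before its start site, which are shown because Tnfrsf12a was the member called:

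Tnfrsf12a, chr17:23677450-23677699, minus strand: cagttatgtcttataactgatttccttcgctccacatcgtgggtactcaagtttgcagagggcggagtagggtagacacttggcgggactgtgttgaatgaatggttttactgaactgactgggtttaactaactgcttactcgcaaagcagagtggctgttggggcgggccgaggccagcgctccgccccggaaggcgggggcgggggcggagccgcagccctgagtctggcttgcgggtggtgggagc

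The other TRAF-binding receptors and Tnfrsf26 gave smaller differences that did not pass the adjusted threshold. Of all 10 tested TRAF-binding receptors, Tnfrsf12a included, 6 had a log2 fold change above 0 and 4 below. Tnfrsf4, the OX40 receptor of activated T cells, had levels of 2.36, 1.30, 0.679 and 0.480 CPM in GB-IL 1 to 4. In DIO livers these were 0.314, 0.0984, 0.407, 0.339 and 0.481 CPM, so GB-IL 1 to 3 were above every DIO liver and GB-IL 4 was level with DIO 5. The log2 fold change was 1.84 ± 0.49 (SE; edgeR adjusted p = 0.0544). Tnfrsf11a, which encodes RANK, was higher in all 4 GB-IL livers, at 1.79, 1.47, 2.08 and 1.84 CPM, than in the DIO livers, at 0.680, 1.18, 0.916, 0.566 and 0.961 CPM. GB-IL 4 stood with the other GB-IL livers here, and the log2 fold change was 1.05 ± 0.34 (SE; edgeR adjusted p = 0.0967). Tnfrsf26, which lies among neighbouring receptor copies on chromosome 7, had 2.78, 2.03, 1.87 and 1.07 CPM in GB-IL against 0.560 to 1.02 CPM in DIO livers (log2 fold change 1.26 ± 0.34, SE; edgeR adjusted p = 0.0544). Tnfrsf11a, Tnfrsf12a and Tnfrsf26 were thus 3 members without overlap between GB-IL and DIO livers, all higher in GB-IL, where 2.67% of all genes tested did not overlap and were higher and 1.51% lower. The abundant Ltbr and Tnfrsf1b gave log2 fold changes of 0.36 ± 0.21 and 0.42 ± 0.25 (SE), with edgeR adjusted p of 0.313 and 0.306. Tnfrsf18 and Tnfrsf14 were on the lower side, at -0.95 ± 0.57 and -0.41 ± 0.60 (SE), with edgeR adjusted p of 0.315 and 0.677. Eda2r and Tnfrsf19, also lower, are given below.

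**Figure D2:**
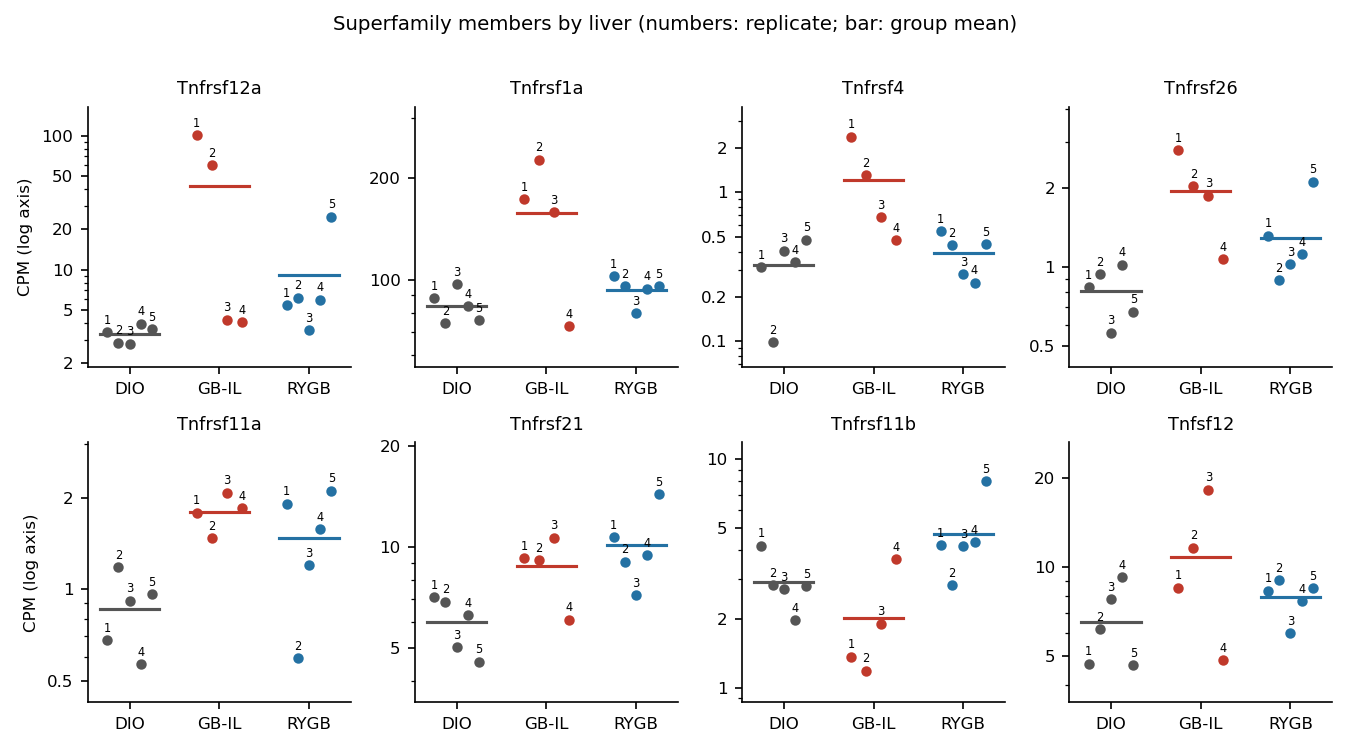
Levels of 8 members in CPM (log axes) for 5 DIO, 4 GB-IL and 5 RYGB livers; each point is a liver with its replicate number, and bars are group means. Tnfrsf12a reached 101 and 60.0 CPM in GB-IL 1 and 2 and 24.8 CPM in RYGB 5, while Tnfrsf11a was higher in all 4 GB-IL livers than in any DIO liver.

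Among the death domain receptors, Tnfrsf1a had the smallest p. Its levels were 173, 226, 158 and 73.2 CPM in GB-IL 1 to 4 and 88.4, 74.4, 97.3, 83.5 and 75.9 CPM in DIO livers. GB-IL 1 to 3 were above every DIO liver and GB-IL 4 was below all of them. The log2 fold change was 0.91 ± 0.24 (SE), just outside the threshold at an edgeR adjusted p of 0.0535; without GB-IL 4 it was 1.14, with an adjusted p of 0.000756. Tnfrsf21, the death receptor DR6, had 9.30, 9.15, 10.7 and 6.09 CPM in GB-IL against 7.12, 6.89, 5.04, 6.28 and 4.57 CPM in DIO livers (log2 fold change 0.56 ± 0.23, SE; edgeR adjusted p = 0.171). Fas, the receptor of Fas ligand, had a log2 fold change of 0.01 ± 0.27 (SE), with a 95% interval from -0.53 to 0.54. The values for Tnfrsf10b, a receptor of TRAIL, were 0.59 ± 0.47, and those for Ngfr and Tnfrsf25 were -0.67 ± 0.35 and -0.63 ± 0.49 (log2 fold change, SE).

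None of the 5 tested ligands passed the adjusted threshold in GB-IL livers. Tnfsf12, the ligand of Tnfrsf12a, had 8.51, 11.6, 18.3 and 4.83 CPM in GB-IL 1 to 4 and from 4.66 to 9.22 CPM in DIO livers. Its highest level was in GB-IL 3, where Tnfrsf12a was low, and the groups overlapped (log2 fold change 0.73 ± 0.32, SE; edgeR adjusted p = 0.189). Its counts are uncertain, since Tnfsf12 lies next to Tnfsf13 and overlaps a read-through gene on chromosome 11. Ltb, a lymphotoxin subunit, and Tnfsf14, the ligand LIGHT, had log2 fold changes of 1.42 ± 0.65 and 1.14 ± 0.52 (SE), with edgeR adjusted p of 0.206 and 0.208. Ltb was highest in GB-IL 2, at 88 counts against 7 to 22 counts in DIO livers, and without that liver its log2 fold change was 0.61 (adjusted p = 0.608). The other pair gave -0.26 ± 0.48 for Tnfsf10, which encodes TRAIL, and 0.28 ± 0.40 for Tnfsf13, which encodes APRIL (log2 fold change, SE). Of the decoy receptors, Tnfrsf11b, which encodes OPG, had 1.37, 1.19, 1.91 and 3.65 CPM in GB-IL and 4.19, 2.81, 2.70, 1.98 and 2.79 CPM in DIO livers. GB-IL 1 to 3 were below every DIO liver and GB-IL 4 was within their range (log2 fold change -0.50 ± 0.37, SE; edgeR adjusted p = 0.401). Without GB-IL 4 the value was -0.96 (adjusted p = 0.0595). The other tested decoy receptor, Tnfrsf23, went the other way, at 1.30 ± 0.357 CPM in GB-IL (SD, n = 4) and 0.715 ± 0.312 CPM in DIO livers (SD, n = 5). Neither decoy receptor was called with all livers.

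**Figure D3:**
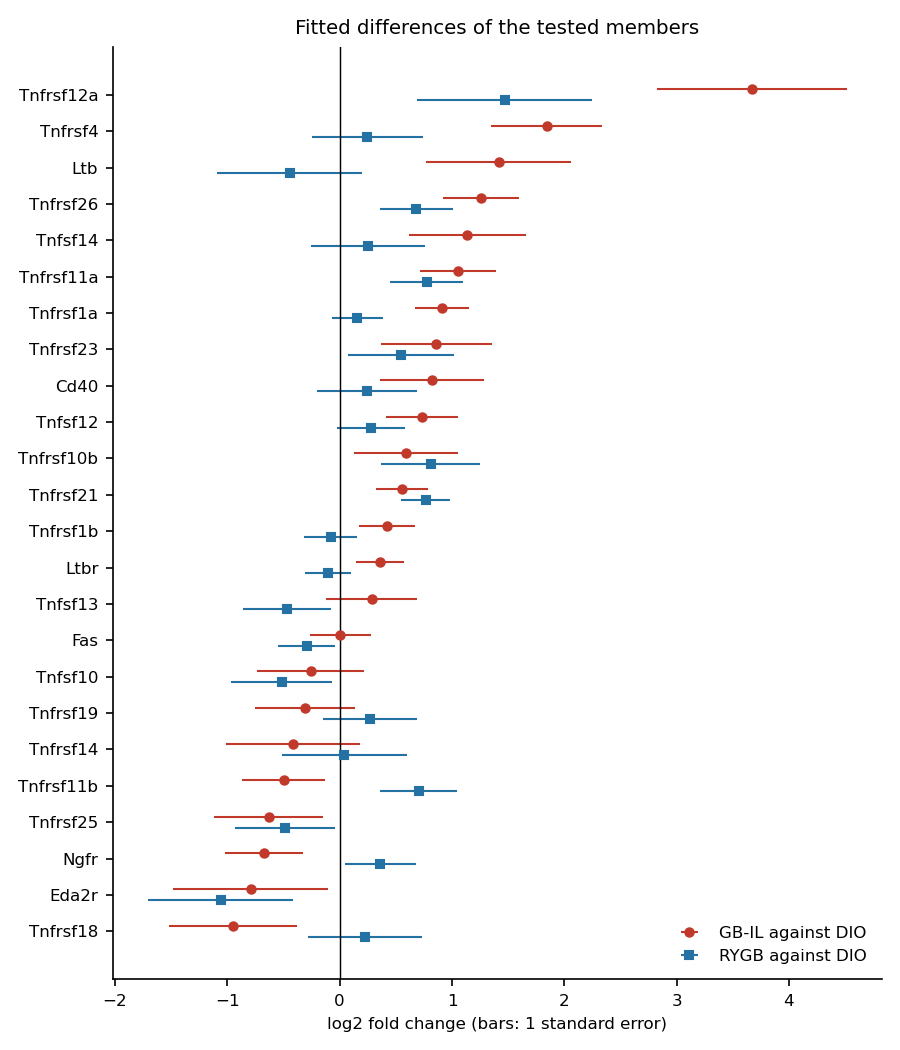
Fitted log2 fold change of the 24 tested members for GB-IL against DIO (circles) and RYGB against DIO (squares), which share the DIO livers; bars are 1 standard error. Tnfrsf12a had the largest GB-IL value, 3.67, and the largest RYGB value, 1.47, and of all values shown the adjusted threshold was passed for Tnfrsf12a in GB-IL.

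More members passed the threshold when GB-IL 4 was left out. Without it, 11 of 24 members were called against DIO (edgeR adjusted p). The 8 higher members were Tnfrsf12a, Tnfrsf1a, Tnfrsf4, Tnfrsf26, Tnfrsf21, Ltb, Tnfsf12 and Tnfsf14, where 15.4% of all genes were called higher. The 3 lower members were Ngfr, Eda2r and Tnfrsf19, where 9.27% of all genes were called lower. Eda2r had a log2 fold change of -0.79 with all livers (adjusted p = 0.470), and its adjusted p was 0.0441 without GB-IL 4. Tnfrsf19 had -0.31 with all livers and -1.10 without GB-IL 4. DESeq2 on all livers called 5 members higher, Tnfrsf12a, Tnfrsf11a, Tnfrsf4, Tnfrsf1a and Tnfrsf26, with 7.77% of all genes called higher. The limma voom fit, which gives less weight to livers that vary more, called Tnfrsf1a alone, with 3.58% of all genes called higher. Its adjusted p for Tnfrsf12a was 0.397.

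Of the 16 ligands, 11 had too few counts for the fit, Tnf among them. Tnf had 5, 3, 37 and 6 counts in GB-IL 1 to 4, 4, 6, 11, 1 and 0 counts in DIO and 9, 5, 4, 5 and 6 counts in RYGB livers. Only GB-IL 3 was above the highest DIO liver, and the group means did not differ beyond the spread (two-sided exact permutation test, p = 0.444). Of the 19 members left out of the fit, 3 had an exact permutation p under 0.05 for GB-IL against DIO, where the smallest p this design can give is 0.0159. All 3 were higher, and of the 9482 genes with a count in these livers that were too low to fit, 3.29% were higher and 1% lower by this test. Tnfsf9, the ligand of Tnfrsf9, had 15, 6, 9 and 2 counts in GB-IL 1 to 4 and no more than 1 count in any DIO liver. The groups did not overlap (exact p = 0.0159), and the ratio of the pooled rates was 8.93, with a 95% counting interval from 3.17 to 34.7. Tnfrsf13b, the TACI receptor of B cells, had 10, 8, 32 and 12 counts in GB-IL and 3 to 6 counts in DIO livers, again without overlap (exact p = 0.0159; rate ratio 3.01, 1.84 to 5.09). Lta, the soluble lymphotoxin, had 9 counts over the GB-IL livers and 1 over the DIO livers (exact p = 0.0476; rate ratio 10.04, 1.39 to 440). These p-values are not corrected for the number of members. In an edgeR fit of all 24635 genes with a count, the adjusted p was 0.0628 for Tnfsf9, 0.0764 for Tnfrsf13b and 0.187 for Lta. The intervals cover counting error only.

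RYGB was compared with DIO to ask the same of the bypass. No member was called by edgeR, as for 0% of all genes. DESeq2 also called 0 members, although it called 0.681% of all genes, and limma voom called 1, Tnfrsf21, where 6.08% of all genes were called higher. At an unadjusted p under 0.05 in edgeR, Tnfrsf21 and Tnfrsf11a were higher and none was lower, where 5.35% of all genes were higher and 3.36% lower. The median log2 fold change of the 24 members was 0.25, against 0.01 over all genes. In an edgeR fit of the RYGB and DIO livers alone, 0 of 20 members and 33 of 13627 genes were called. At an unadjusted p under 0.05 in either direction, that fit had 5 of the 20 members and 2328 of the 13627 genes. Tnfrsf21 was at 10.7, 9.07, 7.22, 9.47 and 14.4 CPM in RYGB livers, each above the highest DIO liver. It was the 1 tested member without overlap, where 1.87% of all genes did not overlap and were higher and 1.66% lower, and its log2 fold change was 0.77 ± 0.22 (SE; edgeR adjusted p = 0.383). Tnfrsf11a was at 1.91, 0.592, 1.20, 1.57 and 2.11 CPM in RYGB livers, with RYGB 2 within the DIO range (log2 fold change 0.77 ± 0.33, SE; edgeR adjusted p = 0.547). The GB-IL and RYGB differences for RANK share the DIO livers, so their common direction is not 2 separate observations.

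Tnfrsf12a and Tnfrsf9 were highest in RYGB 5 among the RYGB livers. Tnfrsf12a had a log2 fold change of 1.47 ± 0.78 against DIO (SE; edgeR adjusted p = 0.612), which was 0.67 without RYGB 5. Tnfrsf9, a costimulatory receptor of activated T cells, had 108 counts in RYGB 5 and 2, 1, 1 and 0 in the other RYGB livers, and this gene was chosen after its values were seen. Among the 19 members too low to fit, 3 had an exact permutation p under 0.05 for RYGB against DIO, 2 higher and 1 lower, where 2.79% of the 9271 such genes with a count were higher and 1.37% lower. Tnfrsf13b was higher in all 5 RYGB livers, at 6, 8, 12, 8 and 10 counts, than in any DIO liver once scaled for depth. Its exact permutation p was 0.00794, the smallest this design can give, and its rate ratio 1.55 with an interval from 0.919 to 2.70. Tnfsf9 had 7, 2, 1, 4 and 13 counts in RYGB livers (exact p = 0.0397; rate ratio 5.49, 1.91 to 21.6). Tnfsf11, the RANK ligand, was counted once in the 5 RYGB livers and 4 times in the 5 DIO livers (exact p = 0.0476; rate ratio 0.203, 0.00413 to 2.05). With all genes fitted by edgeR, the adjusted p was 0.636 for Tnfsf9 and 0.755 for both Tnfrsf13b and Tnfsf11.

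When the 2 operations were compared directly, no member was called by edgeR, as for 0% of all genes. At an unadjusted p under 0.05, 5 members were higher in GB-IL than in RYGB livers, Ltb, Ltbr, Tnfrsf12a, Tnfrsf1a and Tnfrsf4, and 2 were lower, Ngfr and Tnfrsf11b. Over all genes 15.3% were higher and 6.77% lower by that measure. No tested member was without overlap between the 2 groups, where 1.27% of all genes were higher and 1.57% lower without overlap. OPG differed most on the lower side: Tnfrsf11b was at 4.21, 2.81, 4.15, 4.34 and 8.00 CPM in RYGB livers, and GB-IL 1 to 3 lay below all of them, whereas GB-IL 4 was within their range. The log2 fold change of Tnfrsf11b was -1.20 ± 0.37 (SE; edgeR adjusted p = 0.115). For Tnfrsf12a the value was 2.20 ± 0.80 (SE; edgeR adjusted p = 0.152), and it was 3.02 without RYGB 5 and 1.31 without GB-IL 1. For Tnfrsf4 the value was 1.60 ± 0.48 (SE; edgeR adjusted p = 0.112). DESeq2 called these 3, with 4.59% of all genes higher and 1.34% lower. Without GB-IL 4, edgeR called 5 members higher, Tnfrsf12a, Ltb, Tnfrsf4, Ltbr and Tnfrsf1a, and 3 lower, Ngfr, Tnfrsf19 and Tnfrsf11b, with 13.4% of all genes higher and 8.09% lower.

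Downstream of the receptors, 50 genes of TNF signalling were followed as a list and 49 could be tested. The list was chosen with earlier results of these data known, so its counts beside those of all genes are descriptive and no test. In GB-IL against DIO, 5 were called higher and 0 lower by edgeR, and at an unadjusted p under 0.05, 16 were higher and 2 lower. Over all genes, 3.15% were called higher, and 16.7% were higher and 6.43% lower at an unadjusted p under 0.05. The median log2 fold change of the list was 0.30, against 0.04 over all genes, and 35 of its 49 genes and 7563 of all 14252 genes had values above 0. Of the 9 NF-κB subunits and inhibitors, 2 were called and the median was 0.88. Of the 10 death domain adaptors, kinases and caspases, 0 were called by edgeR, 1 was higher and 1 lower at an unadjusted p under 0.05, and the median was -0.24. The difference between these sublists was not tested. Of the called genes, Relb and Nfkb2 encode the NF-κB subunits of the noncanonical pathway, Tnfaip3 and Tnip1 encode inhibitors of NF-κB, and Rhbdf2 encodes iRhom2, which brings the TNF sheddase ADAM17 to the cell surface. Adam17 itself was at 17.3 ± 7.72 CPM in GB-IL (SD, n = 4) and 17.2 ± 3.09 CPM in DIO livers (SD, n = 5).

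Relb was at 22.3, 12.4, 7.68 and 2.88 CPM in GB-IL 1 to 4 and from 1.75 to 2.88 CPM in DIO livers, so that GB-IL 4 was level with the highest DIO liver (log2 fold change 2.28 ± 0.42, SE; edgeR adjusted p = 0.0278). Rhbdf2 was at 124, 40.0, 21.4 and 9.15 CPM in GB-IL livers and within 10.9 to 11.3 CPM in all 5 DIO livers (log2 fold change 2.13 ± 0.50, SE; edgeR adjusted p = 0.0349). Tnfaip3 was at 37.3, 8.70, 15.2 and 5.42 CPM and above all DIO livers in each GB-IL liver (log2 fold change 1.85 ± 0.44, SE; edgeR adjusted p = 0.0365). It was the 1 list gene without overlap here, where 2.67% of all genes did not overlap and were higher and 1.51% lower. For Tnip1 the log2 fold change was 1.32 ± 0.32 (SE; edgeR adjusted p = 0.0398), and for Nfkb2 it was 0.88 ± 0.21 (SE; edgeR adjusted p = 0.0390). In all 5 genes GB-IL 1 to 3 were above the DIO range and GB-IL 4 was the lowest GB-IL liver. Without GB-IL 1 the log2 fold change was 1.08 for Rhbdf2 and 1.07 for Tnfaip3. Leaving out GB-IL 1, GB-IL 2 or any 1 DIO liver took the count to 0, as did fitting the GB-IL and DIO livers alone. Each of these fits also called 0 of all genes tested. Without GB-IL 4, 17 of the list were called higher and 1, Casp8, lower, where 15.4% of all genes were higher and 9.27% lower.

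No gene of the list was called in RYGB against DIO by edgeR or DESeq2, and limma voom called 2 higher and 2 lower, where 6.08% of all genes were higher and 5.77% lower. At an unadjusted p under 0.05 in edgeR, Traf3, a negative regulator of noncanonical NF-κB signalling, was higher and Map3k5 and Bid were lower. With the RYGB and DIO livers fitted alone, edgeR called 0 of 49 list genes and 33 of 13627 genes. In that fit 9 list genes and 2328 of all genes had an unadjusted p under 0.05 in either direction. Traf3 was at 12.4 ± 1.39 CPM in RYGB (SD, n = 5) and 9.70 ± 0.588 CPM in DIO livers (SD, n = 5), and its edgeR adjusted p was 0.547. It was 1 of 2 list genes without overlap, both higher, where 1.87% of all genes did not overlap and were higher and 1.66% lower. The other was Rhbdf2, at 11.5 to 17.3 CPM in RYGB and 10.9 to 11.3 CPM in DIO livers. The direct comparison of the operations called 0 of the list by edgeR, with 17 higher at an unadjusted p under 0.05, where 15.3% of all genes were higher. DESeq2 called 9 of the list, all higher, where 4.59% of all genes were higher.

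**Figure D4:**
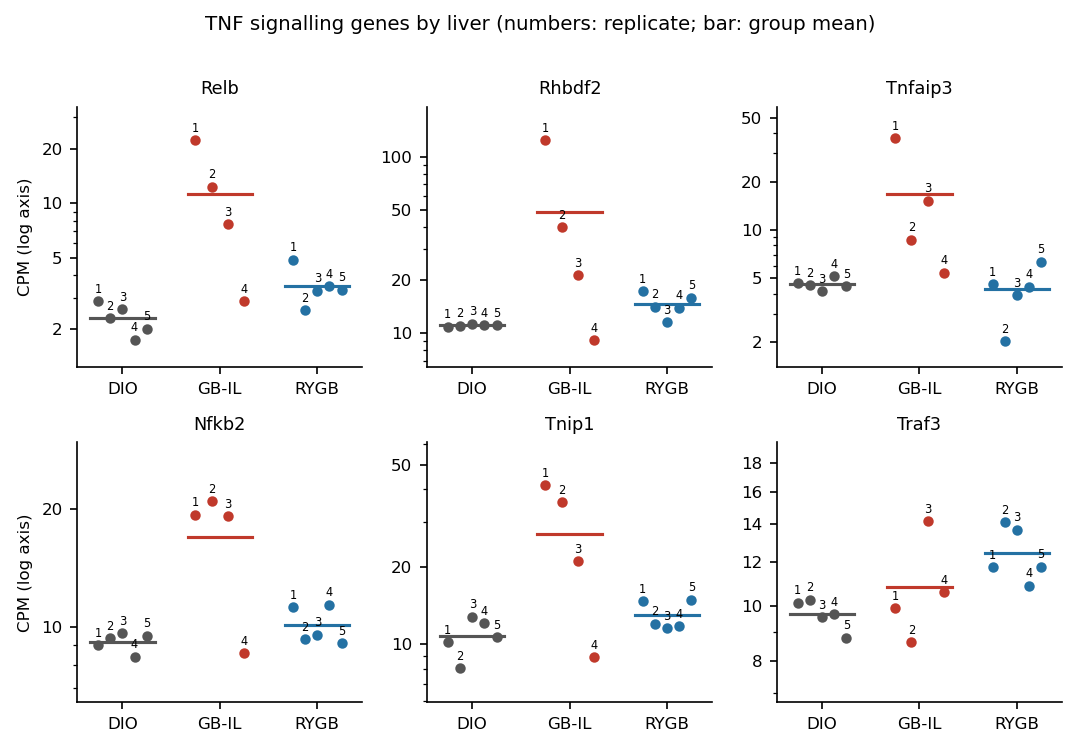
Levels of 6 TNF signalling genes in CPM (log axes) for each liver, with replicate numbers and group means as bars. Relb, Rhbdf2, Tnfaip3, Nfkb2 and Tnip1 were called higher in GB-IL than DIO livers and GB-IL 4 lay at 2.88, 9.15, 5.42, 8.60 and 8.89 CPM, whereas Traf3 was higher in each RYGB liver than in any DIO liver.

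Upstream sequence was read for these genes because several of those called encode parts of the NF-κB pathway. RefSeq start sites on GRCm38.p6 gave 250-base windows for 33 of the member genes and 39 of the list genes. Some genes had several windows, so matches were counted by gene. The NF-κB consensus was matched on either strand in 10 of these list genes, in 4 of these member genes and in 8.23% of all 27025 genes with a window (7.25% of all windows). The AP-1 site TGANTCA, searched on both strands, was matched in 4 list genes, in 6 member genes and in 7.82% of all genes (6.75% of all windows). Relb and Rhbdf2 were not among the genes with a window. The windows of Nfkb2, Tnfaip3, Tnip1 and the member Ltb are shown because they hold matches, which are in capitals; neighbouring NF-κB matches overlap, and the AP-1 match is the capital stretch TGACTCA of Tnfaip3:

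Nfkb2, chr19:46304487-46304736, plus strand: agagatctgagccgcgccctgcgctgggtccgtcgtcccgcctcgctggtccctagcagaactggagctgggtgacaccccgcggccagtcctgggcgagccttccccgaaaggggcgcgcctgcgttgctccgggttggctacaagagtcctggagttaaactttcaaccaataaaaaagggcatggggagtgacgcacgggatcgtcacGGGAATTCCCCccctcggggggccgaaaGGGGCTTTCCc

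Tnfaip3, chr10:19015411-19015660, minus strand: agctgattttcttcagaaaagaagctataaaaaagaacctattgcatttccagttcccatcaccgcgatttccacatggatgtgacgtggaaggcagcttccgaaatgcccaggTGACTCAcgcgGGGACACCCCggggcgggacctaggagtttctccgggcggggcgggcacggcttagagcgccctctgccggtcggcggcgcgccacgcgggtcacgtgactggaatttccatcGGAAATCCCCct

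Tnip1, chr11:54962941-54963190, minus strand: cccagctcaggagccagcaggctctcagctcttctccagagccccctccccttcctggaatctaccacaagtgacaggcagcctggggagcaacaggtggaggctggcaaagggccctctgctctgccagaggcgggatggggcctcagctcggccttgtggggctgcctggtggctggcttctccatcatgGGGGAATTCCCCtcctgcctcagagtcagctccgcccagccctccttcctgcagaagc

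Ltb, chr17:35194257-35194506, plus strand: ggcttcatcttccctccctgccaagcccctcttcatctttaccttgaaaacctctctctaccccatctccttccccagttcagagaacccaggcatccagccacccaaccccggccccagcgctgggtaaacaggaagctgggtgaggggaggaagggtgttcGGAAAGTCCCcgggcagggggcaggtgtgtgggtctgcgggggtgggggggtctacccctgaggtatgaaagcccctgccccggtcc

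A match is a run of letters and not a binding site, and binding was not measured in these livers. Nfkb2 and Tnfaip3 each have other start sites, whose windows are not shown. The other Tnfaip3 window held no match, whereas the other Nfkb2 windows held further NF-κB matches and one of them an AP-1 match. Of the tested members, Tnfrsf25 also held an NF-κB match that is not shown.

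Markers of several other liver cells were also high in these livers. Summed neutrophil markers (7 genes) were at 118, 54.8, 278 and 6.31 CPM in GB-IL 1 to 4 and at 5.29 to 10.5 CPM in DIO livers. They were at 7.05 to 12.6 CPM in RYGB livers other than RYGB 5, which had 76.4 CPM (exact p against DIO 0.0635 for GB-IL and 0.119 for RYGB). Monocyte markers (5 genes) were at 86.3, 137, 75.9 and 7.41 CPM in GB-IL, at 2.32 to 6.40 CPM in DIO and at 5.82 to 32.6 CPM in RYGB livers (exact p against DIO 0.0159 for GB-IL and 0.0238 for RYGB, not corrected for the number of lists). Cholangiocyte markers (6 genes) were at 318, 259, 218 and 58.1 CPM in GB-IL, at 30.5 to 65.8 CPM in DIO and at 56.7 to 66.8 CPM in RYGB livers (exact p against DIO 0.0317 and 0.0397). Stellate cell and fibroblast markers (8 genes) were at 890 CPM in GB-IL 1, the liver highest for Tnfrsf12a, Relb, Rhbdf2 and Tnfaip3, at 237 to 327 CPM in the other GB-IL livers, at 201 to 325 CPM in DIO and at 279.6 to 488 CPM in RYGB livers (exact p against DIO 0.127 for GB-IL and 0.0317 for RYGB). Sinusoidal endothelial markers (6 genes) were at 458 CPM in RYGB 5 and at 151 to 252 CPM in all other livers. The livers highest for Tnfrsf12a, GB-IL 1 and 2, were also the highest for cholangiocyte markers. The match did not extend to GB-IL 3, with 218 CPM of these markers and 4.24 CPM of Tnfrsf12a. Nor did it extend to RYGB 5, with 24.8 CPM of Tnfrsf12a and 56.7 CPM of the markers, the lowest of the RYGB livers. GB-IL 3, the highest for Tnf, Tnfsf12 and Tnfrsf13b, was the highest for neutrophil markers. It was also the highest for the 8 Kupffer cell and macrophage markers, at 1802 CPM against 360 to 630 CPM in DIO livers (exact p of GB-IL against DIO 0.111). T cell markers (7 genes) ran from 2.47 to 11.1 CPM in GB-IL, from 4.33 to 6.54 CPM in DIO and from 1.63 to 5.91 CPM in RYGB livers, and GB-IL 1, which had the most Tnfrsf4, had the lowest of the GB-IL values. B cell markers (5 genes), beside Tnfrsf13b, ran from 0.791 to 5.43 CPM in GB-IL, from 0.961 to 11.6 CPM in DIO and from 1.66 to 4.98 CPM in RYGB livers. No gene of these lists was at 0 over all livers. The part of these cells in the differences of the members was not tested.

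**Figure D5:**
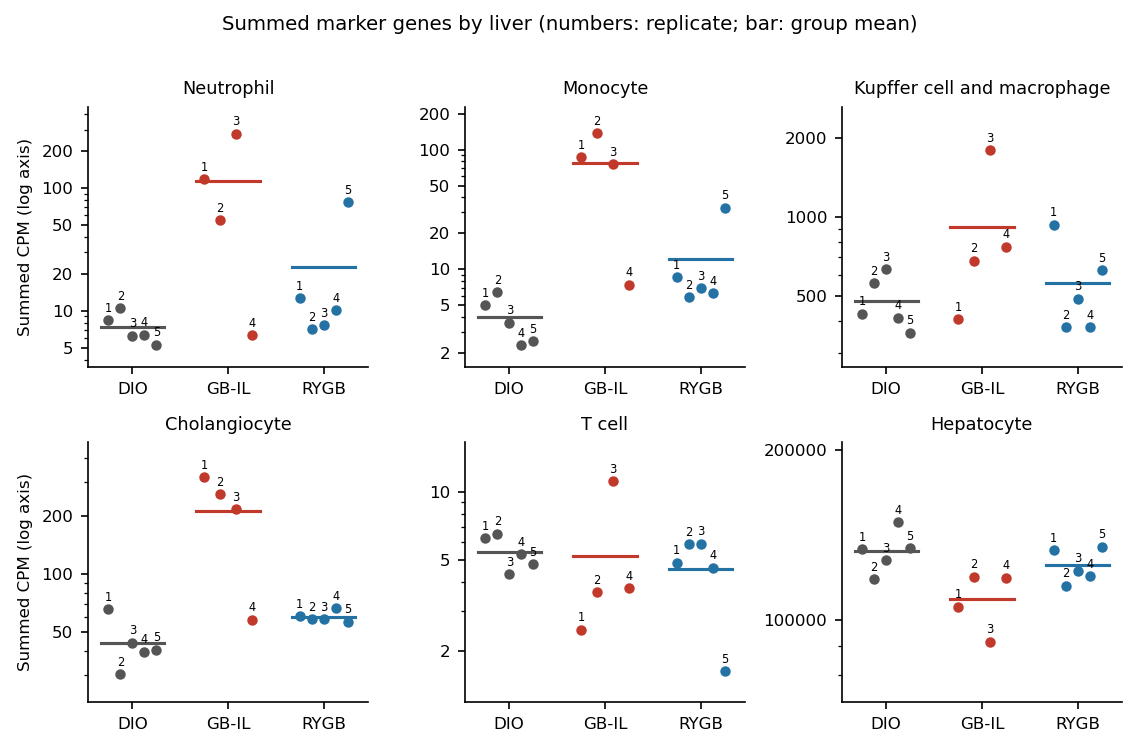
Summed level of marker genes of 6 cell types in CPM (log axes) for each liver, with replicate numbers and group means as bars. Neutrophil and cholangiocyte markers reached 278 and 318 CPM in single GB-IL livers, GB-IL 4 was near the DIO livers for both, and RYGB 5 had 76.4 CPM of neutrophil markers.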

How the data were processed

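Read counts per gene, as deposited, were used without change. Per the study's methods, the authors amplified liver RNA, sequenced it on Illumina HiSeq, aligned reads with TopHat 2 to mm10 and counted them with HTSeq; the labels name 2 stranded kits without assigning them to livers, with the strand setting and annotation not given in the sources used here. A change of kit could move low genes, and reads shared by neighbouring or overlapping members could not be divided.

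Samples were grouped by their labels. Genes were kept by filterByExpr (14252 of 25212; 577 had no count) and fitted with edgeR 4.0.16 (TMM scaling, quasi-likelihood test, all 14 livers, no covariate), with Benjamini-Hochberg adjustment at 0.05. CPM use TMM-scaled library sizes; RPKM divide these by the union of exons in GENCODE M21, which placed 42 of the members. Members left out of the fit were compared with two-sided exact permutation tests on CPM, and rate ratios have exact 95% intervals. Alternatives were RLE scaling, other filters, DESeq2 1.42.0, limma 3.58.1 voom with sample weights, a replicate block, 2-group fits and leaving out each liver. Tests were tried on simulated data first. Named members were those called, the 3 of smallest p in each comparison, the most abundant of each role, the partner of any called, Tnf, Tnfrsf1a, Tnfrsf1b and the untested ones of small p; others are named to fill out a role, with their values seen. Members and lists were chosen with earlier results of these data known. Marker genes were matched by symbol or gene ID. The labels do not state that livers of a group came from separate cohorts, so p-values measure the spread between these mice. Superfamily genes outside the naming rule, such as Eda, Edar and Relt, were not analysed here as members.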

Additional observations from a re-analysis of the deposited data

Results flagged for a closer look

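In 9 cases among 66 groups of livers checked (22 genes in 3 groups), the highest or lowest liver lay apart from the rest of its group by Dixon's criterion, which chance meets in about 1 of 20 groups. Tnfrsf12a was 24.8 CPM in RYGB 5 against at most 6.16 CPM in the other RYGB livers. Tnf was 1.57 CPM and Tnfrsf13b 1.36 CPM in GB-IL 3, where the next livers had 0.263 and 0.525 CPM. Nfkb2 was low in GB-IL 4, at 8.60 CPM against 19.1 CPM or more in the other GB-IL livers. The remaining cases rest on counts of 0 to 2: Lta was 0.0566 CPM in DIO 4, Tnfsf9 was 0 in DIO 4, and Tnfsf11 was 0 in DIO 1, 0.105 CPM in GB-IL 1 and 0.0352 CPM in RYGB 3. No cause was tested for any of them.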

How the results depend on the processing

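Of 1061 alternative values for 51 single-gene results, 951 kept their direction and their side of the threshold, 70 lost an adjusted call and 34 gained one. Most of the 51 results were not called to begin with. Only Tnfrsf12a and the 5 list genes called in GB-IL against DIO could lose a call, and all 70 losses were theirs. The other 6 values changed sign, all for differences that were not called. For RYGB against DIO with each liver left out, the log2 fold change ran from -0.207 to 0.00468 for Ltbr (positive without DIO 3), from -0.213 to 0.0664 for Tnfrsf1b (positive without DIO 5 or RYGB 2) and from -0.284 to 0.0733 for Tnfaip3 (positive without RYGB 2). By voom it was -0.164 for Tnfrsf4 in that comparison and 0.0170 for Tnfrsf21 in GB-IL against RYGB. Members called in GB-IL against DIO numbered 5 by DESeq2, 0 with the replicate block, 0 with the 2 groups alone and 0 to 11 when each liver was left out. List genes called numbered 8, 0, 0 and 0 to 18. Over all genes, the same fits called 1292 of 14252, 1 of 14252, 0 of 13792 and from 0 up to 3572 of 14492. In RYGB against DIO, voom called 1 member and 4 list genes, with 1690 of all 14252 genes. The RYGB and DIO livers fitted alone called 0 members, 0 list genes and 33 of 13627 genes. Every fit without 1 liver called 0 members, 0 list genes and at most 5 of all genes. In GB-IL against RYGB, DESeq2 called 3 members and 9 list genes, voom 0 and 1, and fits without 1 liver 0 to 8 and 0 to 19. Over all genes, DESeq2 called 845 of 14252, voom 115 of 14252 and fits without 1 liver from 0 up to 3120 of 14492. The upper ends came without GB-IL 4; the cause was not tested. The untested members with a small exact p in GB-IL against DIO numbered 2 or 3 in these fits.

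Replicate numbers did not pair the livers: over 13 same-numbered pairs the correlation of deviations ran from -0.381 to 0.381, with 2 over 0.1, and 1 of 14 livers correlated best with its own number. RLE scaling and the filters on low counts left the called members at 1 in GB-IL against DIO and 0 in the other comparisons. With no filter, 4 list genes were called in GB-IL against DIO and not 5. That fit called 51 of 24635 genes in GB-IL against RYGB, with 0 members and 0 list genes among them. Low counts limit Tnf, Lta, Tnfsf9 and most ligands, for which small differences were not detectable at this depth. The wide spread of the 4 GB-IL livers, whose cause was not tested, limits the adjusted calls.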
